A study of Homo sapiens with 24 samples.

Results

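ID3 encodes inhibitor of DNA binding 3 and was 1 of 9822 genes measured in MOLT4 cells, a line derived from T-cell acute lymphoblastic leukaemia. The gene was selected on its fall after 1 h of SK-3-91, where it had the lowest log2 fold change of all genes, so its 1 h values are given as a description without a test. Its row was found by its symbol in the gene column of the deposited tables. Expression was measured by RNA-seq in 24 libraries, 4 in each of 6 groups: MOLT4 cells exposed to the solvent DMSO for 1, 4 or 8 h, and MOLT4 cells exposed to SK-3-91 for 1, 4 or 8 h. SK-3-91 is a degrader that binds many kinases and brings them to a ubiquitin ligase. All groups shared the same cell line and medium, each treatment had a DMSO group of its own time, and the dose is not given in the sources used here. Because the labels do not name separate cultures for the replicates, the p-values describe the scatter among these libraries and that scatter may be technical.

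ID proteins are helix-loop-helix proteins without the basic region that touches DNA. They pair with E proteins, the products of TCF3, TCF4 and TCF12, and keep them off E-box sites in DNA. In developing T cells, ID3 transcription is known to rise with antigen-receptor signals that pass through ERK kinases and the factor EGR1, and in many cell types with BMP and TGF-beta signals that pass through SMAD factors. ID3 was the only one of the 4 ID family genes in the tables used here; ID1, ID2 and ID4 were not analysed here.

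The 250 bases before the RefSeq start of ID3 are shown with those of GFI1 and CISH, the genes whose levels and whose response were most like those of ID3 by the measures given further on. All 3 are on the minus strand of GRCh38.p14, at chr1:23559502-23559751 for ID3, chr1:92486926-92487175 for GFI1 and chr3:50611775-50612024 for CISH, and each is printed 5′ to 3′ along the gene. Capitals mark matches, on either strand, to the TATA-box core TATAA, the NF-Y form CCAAT, the SP-factor form GGGCGG, the E box CANNTG of helix-loop-helix factors, the SMAD form GGCGCC, the STAT form TTCNNNGAA, the ATF and CREB form TGACG, and the CArG box of SRF.
ID3: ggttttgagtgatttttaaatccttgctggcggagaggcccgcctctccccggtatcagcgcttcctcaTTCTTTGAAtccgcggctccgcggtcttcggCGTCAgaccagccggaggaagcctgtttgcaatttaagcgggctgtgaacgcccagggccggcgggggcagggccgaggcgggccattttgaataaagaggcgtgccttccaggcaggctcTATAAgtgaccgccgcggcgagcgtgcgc
GFI1: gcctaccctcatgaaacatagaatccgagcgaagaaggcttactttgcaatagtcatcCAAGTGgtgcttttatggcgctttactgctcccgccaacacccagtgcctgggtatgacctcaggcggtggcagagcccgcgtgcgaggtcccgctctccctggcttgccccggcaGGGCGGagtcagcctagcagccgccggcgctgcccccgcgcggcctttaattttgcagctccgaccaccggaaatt
CISH: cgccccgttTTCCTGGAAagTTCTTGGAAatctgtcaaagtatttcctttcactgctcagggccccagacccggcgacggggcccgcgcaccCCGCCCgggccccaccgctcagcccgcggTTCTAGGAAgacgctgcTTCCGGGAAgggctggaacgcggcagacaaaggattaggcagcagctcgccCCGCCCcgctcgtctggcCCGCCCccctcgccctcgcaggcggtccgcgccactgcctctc

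In the ID3 window, TATAA began 29 bases before the start, at -29, and was present in 19.6% of 27305 promoters of the same length. TTCNNNGAA began at -181 and was present in 6.78% of promoters. TGACG was found at -150 on the opposite strand and in 21.7% of promoters. No match was found in the ID3 window for CCAAT (33% of promoters), GGGCGG (42.3%), the E box (62.2%), GGCGCC (16.1%) or the CArG box (1.14%). The CISH window held 4 matches to TTCNNNGAA and 3 to GGGCGG, whereas the GFI1 window held 1 GGGCGG and 1 E box. No matches overlapped one another in these windows. GC content was 62% with 24 CG pairs in the ID3 window, against medians of 58% and 11 pairs over all promoters. These are matches of letters and say nothing of whether a factor was bound.

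Counted reads per library ranged from 6.863 to 14.626 megareads (M). Group means were 14.15, 14.43 and 14.24 M in DMSO at 1, 4 and 8 h, and 13.61, 10.78 and 8.3 M in SK-3-91, so the lowest ID3 levels were also measured at the lowest depth. Levels are read counts scaled to a common depth (CPM) with TMM factors, which sets each library against the bulk of its genes rather than per cell. All 22 T-lineage markers were measured, with a summed level of 7240 to 8990 CPM across libraries. Of the markers of other cells, 1 of 8 B-cell genes was measured (CD79A) and 1 of 8 fibroblast or endothelial genes (PECAM1), while 0 of 9 myeloid, 0 of 6 erythroid and 0 of 5 epithelial genes were in the tables. Mean CD79A was 8.01, 8.12 and 8.2 CPM in DMSO and 10.1, 17.2 and 26.6 CPM in SK-3-91, and its library values ran from 6.35 to 30.5. Mean PECAM1 was 37.1, 34.5 and 43.3 CPM in DMSO and 38.7, 32.3 and 17.9 CPM in SK-3-91, within a range of 15.7 to 43.7. With SK-3-91 at 8 h mean CD79A was thus higher and mean PECAM1 lower than in DMSO, and their part in the ID3 values was not tested.

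ID3 was high in every DMSO library and low in every SK-3-91 library. At 1 h, the DMSO libraries held 688, 662, 555 and 641 ID3 reads, or 44.3, 43.1, 36.1 and 41.7 CPM. The SK-3-91 libraries of that time held 66, 86, 97 and 108 reads, or 4.56, 5.86, 6.62 and 7.43 CPM. The highest treated library thus lay far under the lowest DMSO library. Mean ID3 was 41.3 ± 3.61 CPM in DMSO and 6.12 ± 1.22 CPM in SK-3-91 (SD, n = 4 each), so that 14.8% of the DMSO level remained. The log2 fold change was -2.75 ± 0.09 (SE; 95% interval -2.94 to -2.56), a level 6.74-fold lower. From summed reads alone, 2546 in DMSO and 357 in SK-3-91, the level was 6.75-fold lower with a 95% exact counting interval of 6.04 to 7.56. Intervals of this kind cover counting error only. In bulk RNA, fewer cells with the transcript and less transcript per cell cannot be told apart.

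The genes ranked next after ID3 at 1 h were CISH, a feedback inhibitor of cytokine receptors (-2.54), the zinc-finger gene ZNF627 (-2.38), PARS2, a mitochondrial prolyl-tRNA synthetase (-2.30), and the zinc-finger genes ZC3H10 (-2.21) and ZNF823 (-2.19). ID3 was the most highly expressed of these in DMSO at 1 h, where CISH averaged 9.59 CPM and ZNF627 27.7 CPM. The median log2 fold change of all genes at 1 h was 0.01, and 29.4% of genes were called lower and 24.9% higher at an edgeR adjusted p under 0.05.

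**Figure D1:**
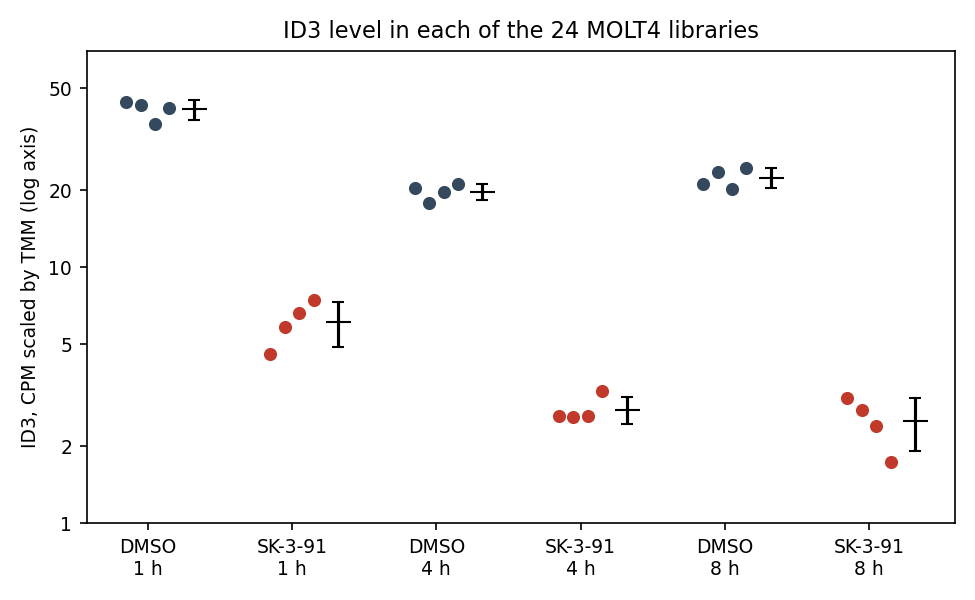
ID3 level in CPM scaled by TMM (log axis) in each library, by group; points are the 4 libraries of a group and the bar beside them is the mean ± SD. All SK-3-91 libraries (red, 1.74 to 7.43 CPM) lie under all DMSO libraries (dark, 17.8 to 44.3 CPM).

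At 4 h, in libraries other than those of the 1 h comparison that the selection rule used, ID3 was again far lower with SK-3-91. Results at 4 and 8 h were also known when the gene was chosen. The DMSO libraries held 20.3, 17.8, 19.6 and 21.1 CPM, from 325, 283, 314 and 331 reads. The SK-3-91 libraries held 2.61, 2.59, 2.61 and 3.27 CPM, from 25, 25, 25 and 32 reads. The groups did not overlap. Separation of this kind was not particular to ID3: at 4 h TCF3, with a log2 fold change of only 0.17, also had no overlap, while LDB1, at 0.04, overlapped. The share of all genes without overlap was not counted at any time. Mean ID3 fell from 19.7 ± 1.4 to 2.77 ± 0.335 CPM (SD, n = 4 each), 14% of DMSO. The log2 fold change was -2.83 ± 0.14 (SE; 95% interval -3.11 to -2.55; edgeR adjusted p = 1.09e-21), a 7.09-fold lower level. An exact two-sided permutation test of 4 libraries against 4 gave p = 0.0286, the smallest that such a design allows. At this time 45.9% of genes were called lower and 42% higher, and ID3 ranked 133 from the lowest fold change. The ID3 fold change was thus close to that at 1 h, while other genes now had lower fold changes.

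At 8 h, the DMSO libraries held 21.2, 23.5, 20.1 and 24.4 CPM of ID3, from 331, 373, 295 and 378 reads. The SK-3-91 libraries held 3.09, 2.76, 2.4 and 1.74 CPM, from 22, 20, 13 and 12 reads. These were the fewest ID3 reads of any group, and again no treated library reached a DMSO library. Mean ID3 fell from 22.3 ± 1.98 to 2.5 ± 0.579 CPM (SD, n = 4 each), 11.2% of DMSO. The log2 fold change was -3.15 ± 0.16 (SE; 95% interval -3.46 to -2.83; edgeR adjusted p = 1.26e-21), an 8.85-fold lower level, and the exact two-sided permutation p was 0.0286. ID3 again ranked 133 from the lowest, where 48.1% of genes were called lower and 41.3% higher. Summed reads gave ratios of 7.11 (95% exact counting interval 5.83 to 8.75) at 4 h and 8.89 (6.95 to 11.5) at 8 h. The median of all genes was -0.05 at 4 h and -0.11 at 8 h. Without scaling factors these medians were -0.35 and -0.54 and the ID3 fold changes -3.12 and -3.58. On the authors' deposited log2 values, which add an offset worth 79.3 to 159 reads before the logarithm, the ID3 differences were -1.27 and -1.40.

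**Figure D2:**
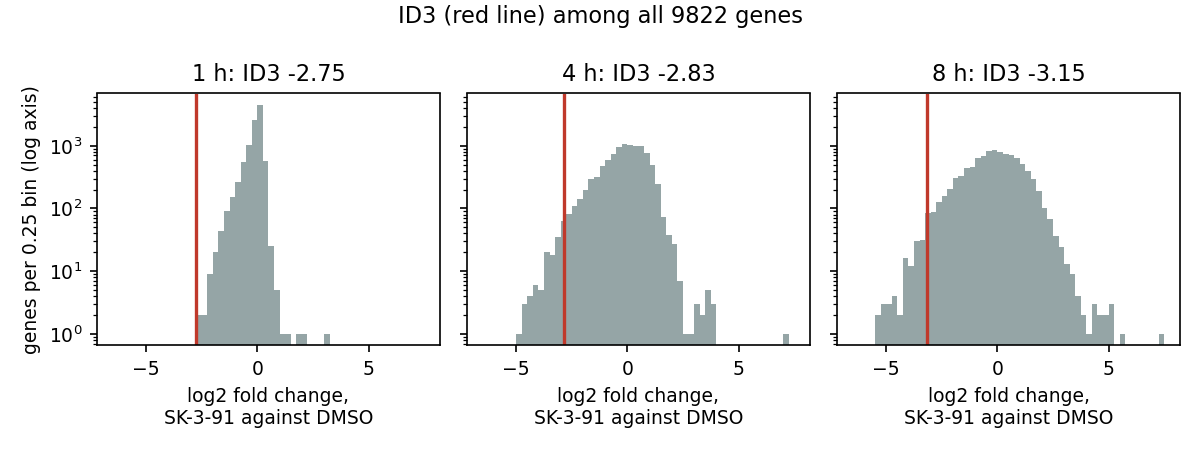
Number of genes (log axis) by log2 fold change of SK-3-91 against DMSO, in bins of 0.25, for all 9822 genes at 1, 4 and 8 h; the red line marks ID3. ID3 sits at the low edge at 1 h and inside the broader low tail at 4 and 8 h.

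No difference between the ID3 responses at 4 and 8 h passed the test. The difference in log2 fold change, 8 h minus 4 h, was -0.32 ± 0.26 (SE; 95% interval -0.86 to 0.21; edgeR adjusted p = 0.283). The interval allows up to 0.86 more or 0.21 less of a decrease at 8 h. By contrast, 68.6% of genes had a response that differed between these times in either direction. Within SK-3-91, ID3 changed by -0.14 ± 0.25 from 4 to 8 h (95% interval -0.65 to 0.37; edgeR adjusted p = 0.619; exact permutation p = 0.429), with overlapping libraries, where 73.4% of genes passed. Leaving out SK-3-91 replicate 4 at 8 h, the library with the least ID3, turned this value to 0.00277.

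ID3 also differed between times in DMSO alone. Mean ID3 was 41.3 CPM at 1 h and 19.7 CPM at 4 h, with no overlap between the libraries. This is a log2 difference of -1.07 ± 0.08 (95% interval -1.22 to -0.91), given without a test because the 1 h libraries served in the selection. It was the tenth lowest of 9822 genes in DMSO between these times, where the median gene differed by -0.01. From 4 to 8 h in DMSO, ID3 differed by 0.18 ± 0.08 (95% interval 0.01 to 0.34; edgeR adjusted p = 0.0974; exact permutation p = 0.114), with overlapping libraries, while 30.7% of genes passed in either direction. Without DMSO replicate 3 at 8 h the value was 0.22 with an edgeR adjusted p of 0.0468. The comparisons over time use the same libraries as the comparisons with SK-3-91 and are not independent of them.

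Ordered by level, ID3 was highest in DMSO at 1 h, then in DMSO at 8 and 4 h, then in SK-3-91 at 1, 4 and 8 h. DMSO at 8 and 4 h overlapped, as did SK-3-91 at 4 and 8 h; all other neighbours in this order were apart. Against DMSO at 1 h as 100%, the later DMSO groups stood at 53.9% (8 h) and 47.8% (4 h), and the SK-3-91 groups at 14.8%, 6.71% and 6.05% at 1, 4 and 8 h. Because DMSO itself was lower at 4 h, the ratio to DMSO at the same time (14.8%, 14% and 11.2%) moved less than the level. From 1 to 4 h within SK-3-91, the log2 difference of ID3 was -1.14 ± 0.17, close in size to that in DMSO, also given without a test.

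The spread of ID3 between replicates was set against counting error. In DMSO the coefficient of variation was 8.73%, 7.11% and 8.88% at 1, 4 and 8 h, where read counting alone gives 3.96%, 5.65% and 5.39%. In SK-3-91 it was 19.9%, 12.1% and 23.2%, where counting gives 10.6%, 19.3% and 24.4%. At 4 and 8 h the treated replicates therefore varied by no more than the counting error of their 12 to 32 reads. Per kilobase of the 1299 bases the authors list as the gene's width, mean ID3 was 31.8, 15.2 and 17.2 RPKM (the CPM divided by the width in kilobases) in DMSO, and 4.71, 2.13 and 1.92 in SK-3-91. On this scale, 21.5% of genes stood above ID3 in DMSO at 1 h, and 84.2% did so in SK-3-91 at 8 h. GENCODE release 29 gives ID3 3 transcripts on the minus strand, with 3 exons in the longest. It shares 0% of its 32-base words with other genes and 0% of its exon bases with exons on the opposite strand.

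The E protein genes, whose products ID3 restrains, moved far less than ID3 and not as one. TCF3, which encodes E2A, was higher with SK-3-91 at 1 h by 0.18 ± 0.04 and at 4 h by 0.17 ± 0.04, and fell at 8 h by 0.51 ± 0.04 on the log2 scale (edgeR adjusted p = 3e-16 at 8 h). Its direction at 4 h depended on the scaling, with -0.13 without scaling factors. TCF12, which encodes HEB, rose by 0.11 ± 0.04 at 1 h and fell by 0.37 ± 0.04 and 0.53 ± 0.04 at 4 and 8 h; without scaling factors the 1 h value was 0.09 and did not pass. TCF4, which encodes E2-2, stood at -0.16 ± 0.08 at 1 h and did not pass, then rose by 0.56 ± 0.08 and 1.09 ± 0.08. TCF4 libraries at 8 h held 24.1, 23.4, 22.8 and 19.1 CPM in DMSO and 47.4, 52.6, 37.8 and 50.6 CPM in SK-3-91, without overlap.

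Per kilobase, the summed level of the E protein genes exceeded that of ID3 in every group. The 3 E protein genes summed to 156, 156 and 161 RPKM in DMSO at 1, 4 and 8 h, and to 174, 163 and 115 RPKM in SK-3-91. Divided by ID3 in the same library, this sum was 4.95 ± 0.522 in DMSO at 1 h and 38.3 ± 8.51 in SK-3-91 (SD, n = 4 each). The ratio was 10.3 ± 0.642 and 77.5 ± 10.2 at 4 h, and 9.47 ± 0.943 and 63 ± 18.9 at 8 h. The lowest treated ratio, 30.7, lay above the highest DMSO ratio, 11.2. ID3 is the denominator and the sum moved far less, so this separation largely restates that of ID3. The lowest treated ratio came from the 1 h libraries, which served in the selection. These are ratios of RNA and not of protein.

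**Figure D3:**
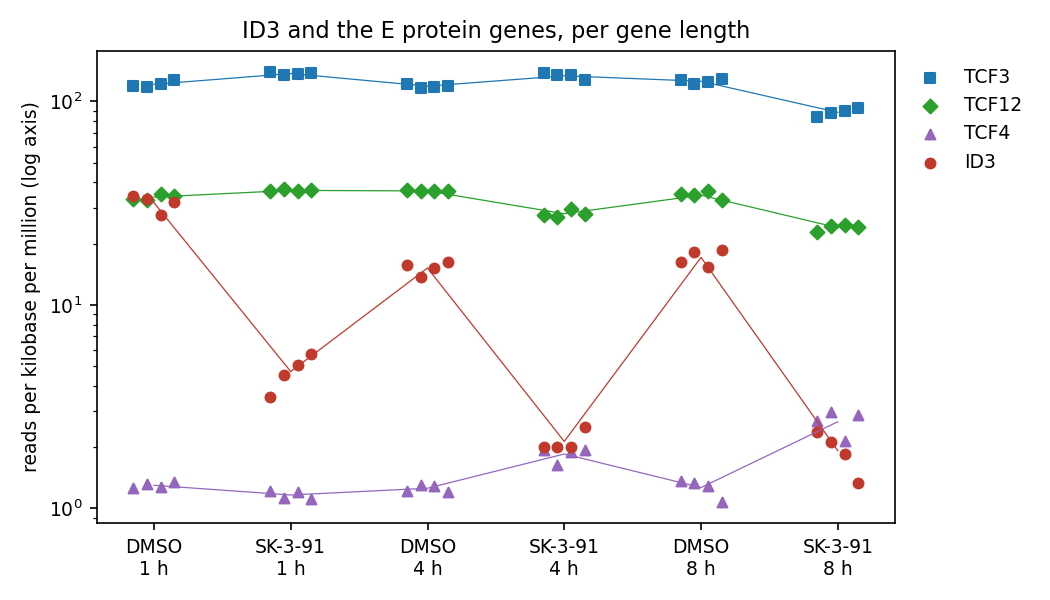
RPKM (log axis) of ID3 and the E protein genes TCF3, TCF12 and TCF4 in each library by group; points are libraries and thin lines join group means. ID3 stands near TCF12 in DMSO at 1 h and near TCF4 in SK-3-91 at 4 and 8 h. The nearness to TCF4 depends on the listed widths, 17655 bases for TCF4 and 1299 for ID3. In CPM, TCF4 averaged 32.7 and 47.1 in those groups and ID3 2.77 and 2.5. TCF3 stays highest in all 6 groups.

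Around ID3, 122 genes were listed by role, of which 81 were in the tables. At 1 h, 31 were lower and 18 higher with SK-3-91, at 4 h 41 and 31, and at 8 h 44 and 32. The shares lower, 38.3%, 50.6% and 54.3%, stood beside the 29.4%, 45.9% and 48.1% of all genes. The shares higher, 22.2%, 38.3% and 39.5%, stood beside 24.9%, 42% and 41.3%. Without scaling factors the splits were 32 and 15, 53 and 21, and 53 and 23. With RLE factors the 1 h split was 30 and 26. ID3 itself is not among these counts.

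Among partners that build complexes with E proteins, 7 were measured. Of these, 2 were called lower at 1 h, 6 at 4 h and 7 at 8 h, with 0 higher. Of all genes, 29.4%, 45.9% and 48.1% were called lower and 24.9%, 42% and 41.3% higher. Their medians were 0.07, -0.55 and -0.65, and those of all genes 0.01, -0.05 and -0.11. LMO2, a bridging protein of T-cell leukaemia complexes, fell by 0.77 ± 0.12 at 4 h and 1.01 ± 0.13 at 8 h. GATA3, a factor of T-cell identity, fell by 0.83, 0.98 and 0.55 at 1, 4 and 8 h. The corepressor genes CBFA2T2 and CBFA2T3 fell by 0.80 and 0.40 at 4 h and by 0.35 and 1.02 at 8 h. The seventh call at 8 h, the adaptor gene LDB1 at -0.09, was lost with RLE factors. Other helix-loop-helix repressors, 3 of 9 measured, were lower in 2, 2 and 3 cases (66.7%, 66.7% and 100%) and higher in 0. With 3 genes these shares are coarse, and they were not tested against those of all genes. BHLHE40 fell by 1.31 at 1 h and by 2.88 at 8 h on the log2 scale. HES1, a Notch target, fell by 1.73 at 1 h and by 0.34 and 0.64 later, and HES6 fell by 0.76 at 8 h. ID3 thus fell at 1 h with HES1 and BHLHE40, and HES1 was back nearer its DMSO level at 4 h whereas ID3 was not.

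Upstream on the BMP and TGF-beta side, the ligand gene BMP4 fell at all 3 times. BMP4 libraries held 9.14, 9.01, 7.75 and 9.5 CPM in DMSO at 4 h and 1.25, 0.933, 0.834 and 0.614 CPM in SK-3-91. The fold changes were -1.88 ± 0.16, -3.27 ± 0.19 and -3.70 ± 0.20 (SE; edgeR adjusted p = 4.6e-20 at 8 h), and the 8 h treated libraries held only 4 to 8 reads. Of the 10 measured ligand and receptor genes, 5 were lower and 1 higher at 1 h, 3 and 5 at 4 h, and 4 and 5 at 8 h. The shares lower, 50%, 30% and 40%, stood beside 29.4%, 45.9% and 48.1% of all genes. The shares higher, 10%, 50% and 50%, stood beside 24.9%, 42% and 41.3%. Medians were -0.34, 0.07 and 0.27, and those of all genes 0.01, -0.05 and -0.11. GDF11, another ligand, stood at -0.06 at 1 h and fell by 1.01 at 4 h and 0.93 at 8 h. The receptor genes ACVR2B and TGFBR2 fell by 0.66 and 1.10 at 1 h, then rose by 0.62 and 0.66 at 4 h and by 1.05 and 1.12 at 8 h.

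SMAD factors carry these signals to the nucleus. Of 10 measured factors and regulators, 6 were lower and 0 higher at 1 h, 6 and 4 at 4 h, and 4 and 5 at 8 h. The shares lower, 60%, 60% and 40%, stood beside 29.4%, 45.9% and 48.1% of all genes. The shares higher, 0%, 40% and 50%, stood beside 24.9%, 42% and 41.3%. Medians were -0.36, -0.25 and 0.21, and those of all genes 0.01, -0.05 and -0.11. SMAD1, a mediator of BMP signals, fell by 0.28, 1.44 and 1.95. SMAD6, an inhibitory SMAD that BMP signals induce, stood at -0.07 at 1 h. It fell by 1.72 ± 0.21 at 4 h and 2.33 ± 0.26 at 8 h. Its treated libraries held only 14, 17, 7 and 7 reads at 4 h and 4, 7, 5 and 7 reads at 8 h. SKI, a repressor of SMAD activity, stood at 0.02 and then fell by 1.15 and 2.02. SMURF1, a ubiquitin ligase for SMAD proteins, fell by 0.98 at 1 h and rose by 1.62 and 2.79 later.

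On the antigen receptor, ERK and EGR route, 25 of 31 listed genes were measured. Of these, 7 were lower and 8 higher at 1 h, 9 and 12 at 4 h, and 11 and 11 at 8 h. The shares lower, 28%, 36% and 44%, stood beside 29.4%, 45.9% and 48.1% of all genes. The shares higher, 32%, 48% and 44%, stood beside 24.9%, 42% and 41.3%. Medians were 0.08, 0.02 and -0.03, and those of all genes 0.01, -0.05 and -0.11. EGR1, an immediate-early factor of this route, fell by 1.10 ± 0.13 at 1 h, 1.45 ± 0.12 at 4 h and 2.31 ± 0.12 at 8 h. Its libraries at 1 h held 7.6, 6.11, 6.51 and 6.63 CPM in DMSO and 2.83, 3.06, 3 and 3.64 CPM in SK-3-91. NAB2, a corepressor that EGR1 induces, fell by 0.83, 2.50 and 2.32. LCP2, the adaptor SLP-76 of the antigen receptor, fell by 0.19, 1.96 and 1.64. The kinase gene BRAF stood at 0.08 at 1 h and rose by 1.09 and 2.26.

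In DMSO alone, EGR1 and BMP4 were higher at the later times and ID3 was lower. EGR1 averaged 6.72, 13.6 and 26.2 CPM in DMSO at 1, 4 and 8 h, and BMP4 5.84, 8.85 and 11.3 CPM, while ID3 averaged 41.3, 19.7 and 22.3 CPM. From 4 to 8 h in DMSO, EGR1 rose by 0.95 ± 0.08 (edgeR adjusted p = 1.6e-12) and BMP4 by 0.35 ± 0.10 (edgeR adjusted p = 0.005). In SK-3-91 EGR1 averaged 3.14, 4.98 and 5.33 CPM and BMP4 1.58, 0.909 and 0.868 CPM.

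Of 12 genes reported as E-protein targets in lymphocytes, 9 were measured. With SK-3-91, 3 were lower and 4 higher at 1 h, 4 and 5 at 4 h, and 5 and 3 at 8 h. The shares lower, 33.3%, 44.4% and 55.6%, stood beside 29.4%, 45.9% and 48.1% of all genes. The shares higher, 44.4%, 55.6% and 33.3%, stood beside 24.9%, 42% and 41.3%. Median log2 fold changes of these targets were -0.05, 0.34 and -0.60, and those of all genes 0.01, -0.05 and -0.11. GFI1, a repressor of early T-cell genes, fell by 1.05 ± 0.05, 1.35 ± 0.06 and 1.51 ± 0.06. NOTCH1, the receptor often mutated in this leukaemia, stood at -0.06 at 1 h and fell by 1.11 and 1.57. RAG2, a recombinase gene, fell by 0.79, 2.46 and 3.18, and is uncertain, since 26% of its exon bases overlap a gene on the other strand. CD3E, a chain of the antigen receptor complex, rose by 0.22, 1.00 and 1.15. ID proteins are short-lived and are turned over through the anaphase-promoting complex. The ID protein turnover list, 15 genes measured, holds subunits and activators of this complex and the deubiquitination and signalosome genes USP1, WDR48 and COPS5. Of the 15, 6 were lower and 4 higher at 1 h, 10 and 4 at 4 h, and 8 and 7 at 8 h. The shares lower, 40%, 66.7% and 53.3%, stood beside 29.4%, 45.9% and 48.1% of all genes. The shares higher, 26.7%, 26.7% and 46.7%, stood beside 24.9%, 42% and 41.3%. Medians were -0.07, -0.31 and -0.46. The activator gene FZR1 fell by 1.80 and 1.70 at 4 and 8 h. The subunit genes ANAPC7 and ANAPC13 fell by 0.47 and 1.29 at 4 h and by 1.20 and 1.47 at 8 h. The subunit gene CDC23 rose by 0.39 at 4 h, a call lost without scaling factors, and by 1.51 at 8 h. No protein was measured.

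**Figure D4:**
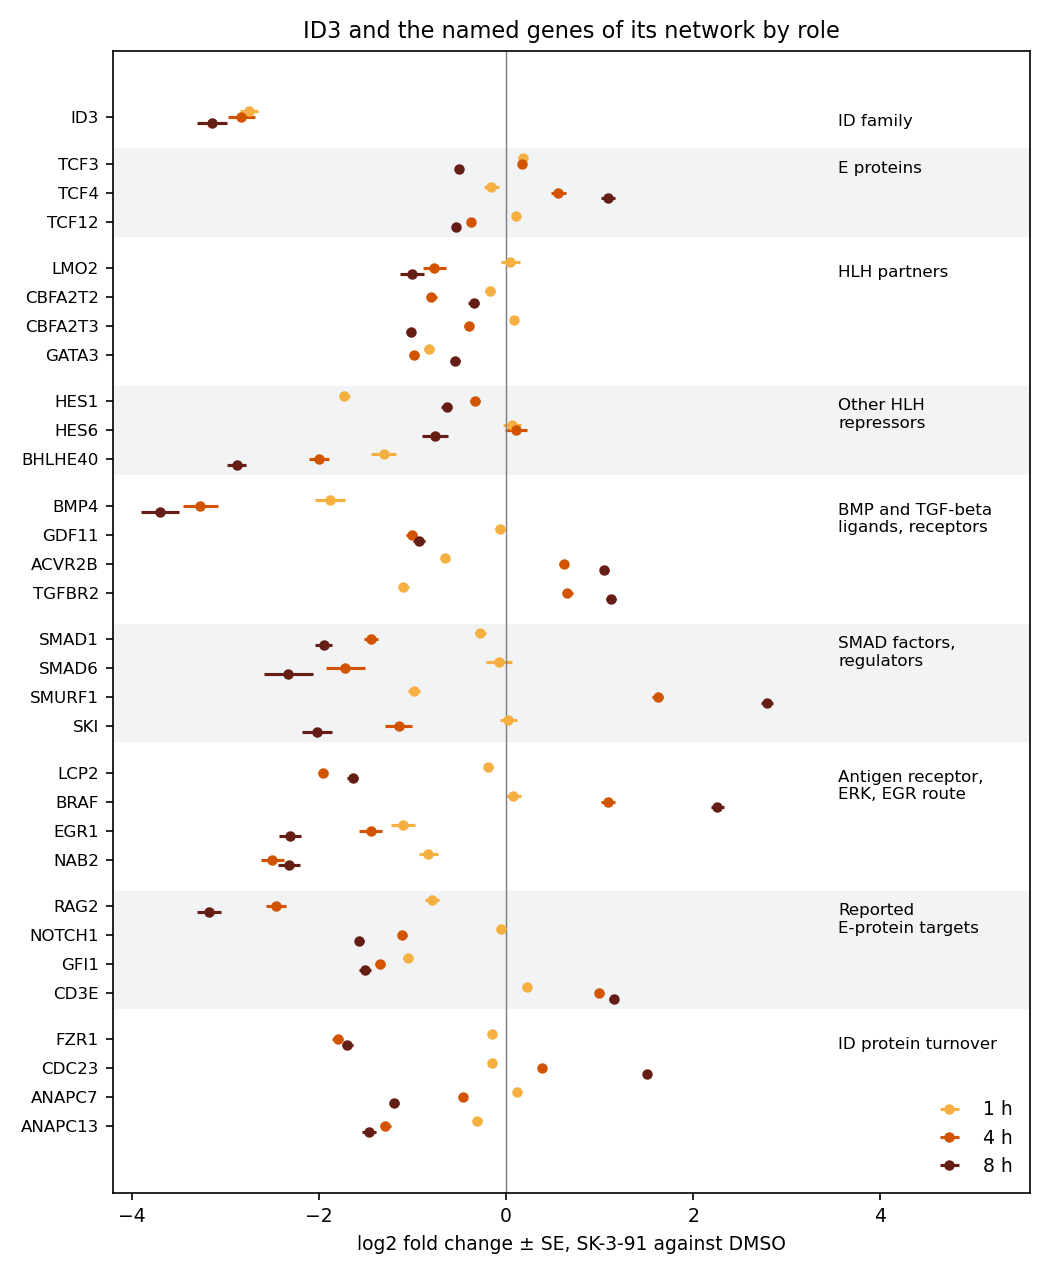
Log2 fold change ± SE of SK-3-91 against DMSO at 1, 4 and 8 h (colours) for ID3 and the named genes, grouped by role on the vertical axis. ID3 lies near -3 at all 3 times, whereas ACVR2B, TGFBR2 and SMURF1 change sign between 1 and 4 h.

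The genes whose levels were most like those of ID3 were taken by Pearson r of log2 CPM over the 24 libraries, among 9189 genes with a mean of at least 5 CPM. GFI1 came first (r = 0.983), followed by the zinc-finger genes ZNF557 (0.98) and ZNF212 (0.978), the endosomal gene RBSN (0.978), NPAT, a coactivator of histone genes (0.978), ZNF680 and ZNF184 (0.975 each), and CCNE2, a cyclin E gene (0.973). CCNE2 is uncertain, with 37.1% of its exon bases overlapping a gene on the other strand. These r values are a description: all genes share the same libraries, the same scaling and the same split into DMSO and SK-3-91, and 463 genes (5.04%) had an r above 0.9. Without scaling factors, 4 of the 8 genes remained among the 8, and GFI1 ranked second with r = 0.983.

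GFI1 tracked ID3 in shape and not in size. Its means were 90.6, 70.6 and 77.8 CPM in DMSO and 43.8, 27.7 and 27.5 CPM in SK-3-91 at 1, 4 and 8 h. Like ID3 it was lower in DMSO at 4 h than at 1 h, by 0.36 against 1.07 on the log2 scale. GFI1 was picked by r over these same libraries, so a shared course follows in part from the pick. The other genes picked by r were also lower in DMSO at 4 h, with CCNE2 at -0.505 and ZNF557 at -0.49. Its decrease with SK-3-91 was 1.05 at 1 h, where that of ID3 was 2.75.

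The genes whose fold changes were closest to those of ID3 over the 3 times, by Euclidean distance, were CISH (0.452), ZNF443 (0.682), the homeobox gene OTX1 (0.816), ZNF627 (0.835), ZNF526 (0.987), ZKSCAN4 (0.998), ZNF436 (1.16) and ZNF16 (1.24). ZNF443 is uncertain, since 55.2% of its 32-base words are shared with other genes. None of these 8 was among the 8 by correlation, an overlap of 0. CISH averaged 9.59, 9.6 and 9.83 CPM in DMSO and 1.65, 1.12 and 1.31 CPM in SK-3-91. Its treated libraries at 8 h held 4 to 15 reads. Between 1 and 4 h in DMSO, CISH differed by 0.00 and ID3 by -1.07, so the likeness of their fold changes with SK-3-91 did not extend to the course in DMSO. Of these 16 genes, 14 had a promoter of the same length in the RefSeq table. TTCNNNGAA was present in 2 of the 14, TATAA in 3, TGACG in 4, GGCGCC in 3, the E box in 6, CCAAT in 7, GGGCGG in 10 and the CArG box in 0.

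**Figure D5:**
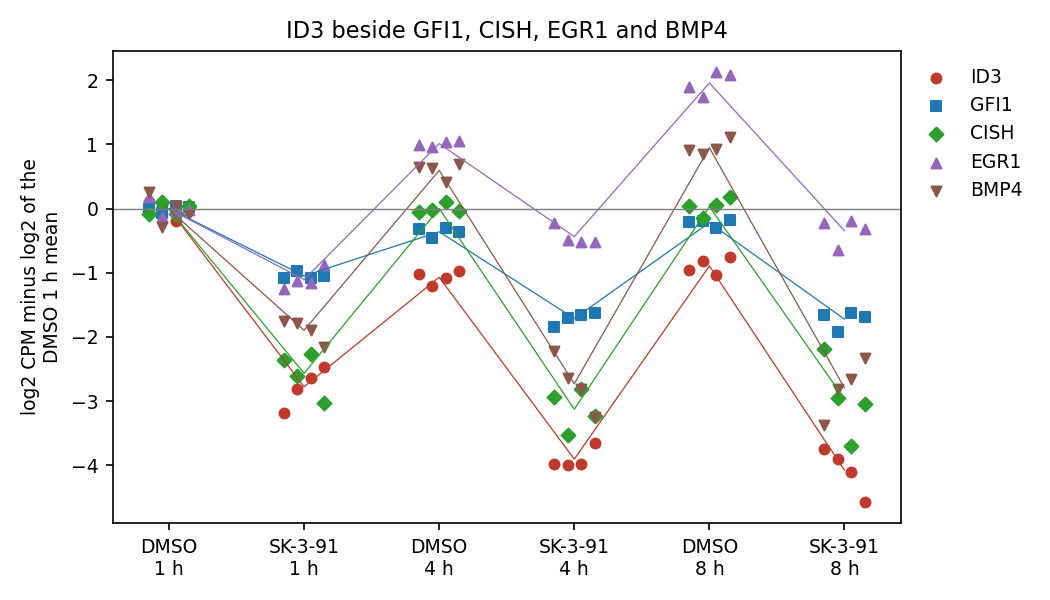
Log2 CPM minus the log2 of the DMSO 1 h mean for ID3, GFI1, CISH, EGR1 and BMP4 in each library by group; points are libraries and thin lines join group means. ID3 and GFI1 are lower in DMSO at 4 h than at 1 h, CISH is level there, and EGR1 and BMP4 are higher.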

How the data were processed

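RNA from MOLT4 cells was sequenced as single-end reads of 50 bases, per the labels' protocols. The authors deposited raw read counts per gene for 24 libraries (9822 genes, 9818 with a symbol), and per the submitters' processing notes used edgeR and hg19; aligner, counting tool and strand setting are not given in the sources used here. Another table deposited by the authors holds log2 values that are a straight line in the count before the logarithm, without gene length, and served only as an alternative.

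Counts were analysed with edgeR 4.0.16 (R 4.3.3) after filterByExpr, which removed 0 genes, and TMM scaling; 1 quasi-likelihood model of group means held all 24 libraries, and p-values were adjusted by Benjamini-Hochberg over 9822 genes with a threshold of 0.05. Across genes the biological coefficient of variation was 0.0422. The script was tested on simulated data in which only a small set of genes changed, as many up as down. That test does not cover scaling where most genes respond, as at 4 and 8 h here. Exact permutation tests compared log2 CPM (prior count 2) of 4 libraries with 4. Counting intervals are 95% exact. The lowest mean count of any gene was 32.04, so the tables were restricted before this work. No 2 libraries of the same group were duplicates: chi-square per degree of freedom ran from 1.63 to 8.39. Pairs across groups were not compared.

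The gene and the lists were chosen with earlier results of these data known. Named genes were ID3, the E proteins, up to 4 called members per list with the largest change at 4 or 8 h and a mean of at least 2 CPM, the 8 genes most like ID3 by each measure, and the genes next to it at 1 h. Genes sharing at least 20% of 32-base words, or of exon bases with the opposite strand, in GENCODE 29 are called uncertain; hg19 differs from that build, so gene coordinates are not given. Promoters are from RefSeq (GRCh38.p14) and do not enter the expression values. Alternatives were RLE, upper-quartile and no scaling factors, no filter, a mean of at least 100 counts, DESeq2 1.42.0, a replicate block, leaving out each replicate, only the groups compared, and limma 3.58.1 on the deposited log2 values.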

Additional observations from a re-analysis of the deposited data

Results flagged for a closer look

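For ID3, the E protein genes, GFI1 and CISH, each group of 4 libraries was examined, 36 sets of values in all. A value was singled out when its gap to the nearest other, divided by the range of the 4, passed Dixon's 95% critical value. By chance about 5% of sets are singled out. ID3 in SK-3-91 replicate 4 at 4 h, at 3.27 CPM from 32 reads, stood above the other 3 libraries, which had 25 reads each. TCF4 in SK-3-91 replicate 2 at 4 h, at 28.9 CPM, stood below the other 3 at 33.6 to 34.2 CPM.

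The E protein genes responded to SK-3-91 differently at 8 h than at 4 h. The log2 response at 8 h minus that at 4 h was -0.68 ± 0.05 for TCF3 (edgeR adjusted p = 9.5e-15), 0.53 ± 0.11 for TCF4 (edgeR adjusted p = 5.5e-05) and -0.16 ± 0.06 for TCF12 (edgeR adjusted p = 0.0096). ID3 itself, at -0.32 ± 0.26, did not pass this test (edgeR adjusted p = 0.283).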

How the results depend on the processing

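ID3 kept its direction and its call against DMSO at 4 and 8 h under all 18 alternatives each. The log2 fold changes were -3.12 to -1.27 and -3.58 to -1.40. The alternative with no filter only repeats the main fit, because filterByExpr removed 0 genes. The exact permutation p, 0.0286 at both times, is not adjusted. At 1 h the range was -2.86 to -1.68. The deposited log2 values gave -1.68 at 1 h, -0.78 for DMSO 4 h against 1 h and -0.36 for SK-3-91 4 h against 1 h; the last was -1.40 without scaling factors and -1.25 to -1.03 when 1 replicate was left out. Those log2 values add an offset to the count, which shrinks differences of low genes by construction. Leaving out 1 replicate gave 0.13 to 0.22 for DMSO 8 h against 4 h and -0.27 to 0.00277 for SK-3-91 8 h against 4 h; the reversed value came without SK-3-91 replicate 4 at 8 h (edgeR adjusted p = 0.993), and the cause was not tested. With a replicate block, ID3 stood at -2.75, -2.83 and -3.15 at 1, 4 and 8 h (edgeR adjusted p = 9.27e-21 at 4 h and 9.95e-21 at 8 h), and no ID3 call changed. The replicate numbers showed little pairing between SK-3-91 and DMSO, where correlations of deviations from group means ran from -0.119 to 0.0219. Of all 28 pairs of libraries with the same number, 5 had deviations that correlated by more than 0.1. Within DMSO the values were -0.0802, 0.178, -0.111 and 0.215 between 1 and 4 h. Between 4 and 8 h they were 0.17, 0.08, 0.0688 and 0.28, so pairing within DMSO is not settled. Of the 8 genes most like ID3, 4 remained without scaling factors. Depth limits the treated levels: the fewest ID3 reads in a library, 12, allow 0.731 to 2.47 unscaled CPM.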

Other observations

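Between 1 and 4 h in DMSO, with no degrader present, 9 genes were lower by more than ID3; the following were named after their values were seen. The zinc exporter gene SLC30A1 differed by -1.88 ± 0.09 (SE), the muscle ubiquitin ligase gene FBXO32 by -1.44 ± 0.10, the cystine transporter gene SLC7A11 by -1.36 ± 0.10, and the kinase gene PIM1 by -1.11 ± 0.07. ZMAT3, a p53 target, came directly after ID3 at -1.05 ± 0.07. These are differences between libraries of different harvest times, given without a test.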
